A study of Homo sapiens with 8 samples.

Results

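The UBE2 genes encode the ubiquitin-conjugating enzymes, and their transcripts were followed in LN229-TAZ(4SA) glioblastoma cells that received AF while glucose was withdrawn. Members were all rows of the deposited gene table whose symbol begins with UBE2 and continues with a letter. This gave 34 of the 13036 rows, of which 32 are protein-coding genes in RefSeq and 2 are pseudogenes, UBE2MP1 and UBE2E4P. The rule uses the symbol alone, and it was set with earlier results of these data known.

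Ubiquitin is passed along a relay of enzymes. An activating enzyme (E1) charges a conjugating enzyme (E2), and a ligase (E3) brings the charged E2 to a substrate. The E2 often sets how the chain is linked, and with it whether the substrate is sent to the proteasome or takes part in signalling. A few E2 enzymes of the same fold carry ubiquitin-like proteins instead, such as NEDD8 or ISG15. In dividing cells such as glioblastoma lines, E2 enzymes of the anaphase-promoting complex (APC/C) help to end mitosis, and others act at damaged DNA and at the endoplasmic reticulum (ER).

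The study measured mRNA of cultured cells by bulk RNA sequencing, with 4 groups of 2 libraries. Cells were given 1 µM AF in glucose-deprived medium for 1 h or for 7 h, and each time had a group in regular culture without AF. AF is named in the labels by this abbreviation only, and the series title speaks of inhibition of thioredoxin reductase 1. AF and glucose withdrawal were applied together, so their effects cannot be told apart. All groups are the same established line, LN229 glioblastoma cells with the TAZ(4SA) label, grown with 10% fetal bovine serum; the labels do not tell whether it is 1 clone. The labels do not tell whether the libraries of a group came from separate cultures. The p-values cover the spread between libraries alone, and that spread may be technical.

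Reads summed over the table came to 27731776 to 45811965 a library, so 1 read equalled 0.0209 to 0.0430 CPM. CPM is the count per standard library size, here on the authors' scaled library size, which was 0.838 and 0.846 times the read total in the 7 h libraries with AF without glucose and 1.04 to 1.09 times it in the others. HMOX1, the oxidative stress gene for heme oxygenase, averaged 21100 ± 290.0 CPM with AF without glucose and 10.3 ± 1.18 CPM in regular culture at 7 h (SD, n = 2 each). The glial and mesenchymal markers VIM (2730 to 3730 CPM), CD44 (863 to 1140 CPM) and NES (888 to 1440 CPM) were high in all 8 libraries. GFAP (0.438 to 1.34 CPM) and OLIG2 (6.6 to 16.8 CPM) were low, and SOX2 ran from 18.1 to 130 CPM. Of the rest of this marker class, EGFR had 57.2 to 103 CPM, S100B 93.6 to 276 CPM and FABP7 32.8 to 74.1 CPM. CHI3L1 was not listed. Of the markers of other cell types fixed for the check, CD68 (11.2 to 22.1 CPM) and VWF (0.618 to 1.5 CPM) were listed, and the other 8 are not analysed here.

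Promoter sequences are shown for members at both ends of the response at 7 h. UBE2D3 and UBE2D1 rose, and UBE2T and UBE2G2 fell. UBE2G1 fell by more than UBE2G2, and its window, not shown, held none of the motifs marked below. The windows are from RefSeq on GRCh38.p14, on the gene's strand, with 250 bases before the start site and 50 after it. The table held 37 windows for 25 of the 34 members. UBE2B is not among them, nor are UBE2C, UBE2H, UBE2Q1, UBE2V2, UBE2W and both pseudogenes. Capitals mark every match to the heat shock pair, the antioxidant element, the amino acid response element, the CCAAT box or the cell cycle element described after the sequences.
UBE2D3, chr4:102868846-102869145, minus strand: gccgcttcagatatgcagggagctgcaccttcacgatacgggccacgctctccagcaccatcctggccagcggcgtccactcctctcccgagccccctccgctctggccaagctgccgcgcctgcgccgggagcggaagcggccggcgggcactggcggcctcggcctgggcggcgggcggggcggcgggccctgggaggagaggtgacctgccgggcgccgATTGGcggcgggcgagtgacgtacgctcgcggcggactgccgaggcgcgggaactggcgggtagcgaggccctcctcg
UBE2D1, chr10:58334756-58335055, plus strand: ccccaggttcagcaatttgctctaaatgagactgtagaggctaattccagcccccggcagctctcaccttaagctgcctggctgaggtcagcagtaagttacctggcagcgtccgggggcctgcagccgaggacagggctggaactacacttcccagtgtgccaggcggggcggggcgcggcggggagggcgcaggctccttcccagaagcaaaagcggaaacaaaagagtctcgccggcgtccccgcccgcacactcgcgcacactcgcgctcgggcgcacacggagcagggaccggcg
UBE2T, chr1:202341887-202342186, minus strand: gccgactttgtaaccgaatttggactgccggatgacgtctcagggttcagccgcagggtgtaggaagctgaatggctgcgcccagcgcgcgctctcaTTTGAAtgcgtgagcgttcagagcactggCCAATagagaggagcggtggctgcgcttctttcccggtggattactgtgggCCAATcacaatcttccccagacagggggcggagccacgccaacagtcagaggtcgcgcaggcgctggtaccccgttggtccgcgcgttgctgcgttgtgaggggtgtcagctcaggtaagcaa
UBE2G2, chr21:44801771-44802070, minus strand: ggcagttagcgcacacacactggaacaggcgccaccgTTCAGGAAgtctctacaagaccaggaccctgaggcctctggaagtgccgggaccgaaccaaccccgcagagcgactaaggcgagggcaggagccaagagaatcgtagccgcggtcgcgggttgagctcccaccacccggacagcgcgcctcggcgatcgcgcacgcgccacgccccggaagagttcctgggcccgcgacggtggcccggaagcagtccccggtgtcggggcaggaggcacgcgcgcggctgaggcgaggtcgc

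The UBE2T window held CCAAT, the box bound by NF-Y, at positions -124 and -73 from the start site. It also held TTTGAA, a sequence found in cell cycle promoters, at position -153. The UBE2D3 window, the farthest upstream of 6 for that gene, held CCAAT on the other strand at position -28. Not all of the 6 windows held CCAAT. Searched on both strands, CCAAT was in 10 of the 37 windows of members and in 34.6% of 35116 promoters in the table. TTTGAA was in 2 of the 37, those of UBE2T and UBE2F, and in 15.2% of all promoters. The heat shock pair, GAANNTTC or TTCNNGAA, was in 1 window, that of UBE2G2, at position -213, and in 13.5% of all promoters. The heat shock element of 3 units was in none of the 37 and in 0.49% of all. The antioxidant element TGACNNNGC was in 5 windows, those of UBE2D2, UBE2E3, UBE2J1, UBE2K and UBE2Q2, and in 13.3% of all promoters. The amino acid response element TGATGNAA was in none and in 3.62% of all, and TATAAA in 2 and in 11.5% of all. The UBE2D1 window held none of the 5 marked motifs. Among the 15280 promoters of tested genes the shares were 34.8% for CCAAT, 10.6% for TTTGAA, 10.6% for the heat shock pair, 0.321% for its form of 3 units, 14.4% for TGACNNNGC, 2.0% for TGATGNAA and 6.36% for TATAAA. These are matches of letters and not binding sites.

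At 7 h the family split evenly: 14 of 34 members were higher and 14 lower with AF without glucose than in regular culture, by limma with Benjamini-Hochberg adjusted p under 0.05. The largest rise was that of UBE2B, a DNA damage and protein quality E2, at 4.17-fold. The next was that of UBE2D3, the most widely used E2 partner of RING ligases, at 2.12-fold. The largest fall was that of UBE2T, the E2 of the Fanconi anemia pathway, at 2.37-fold lower. These were the members past 2-fold.

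Over all 13028 genes tested, 81.6% were called at 7 h, with 40.5% higher and 41.1% lower, so the 82.4% of UBE2 members called is close to the background. The 2-fold rises (2 of 34) and fall (1 of 34) compare with 10.6% and 11.5% of all genes. The median log2 fold change was -0.04 over the members and -0.01 over all genes, and the members ranged from -1.24 to 2.06. The libraries with AF without glucose and those in regular culture did not overlap for 30 of the 34 members, against 90.6% of all genes. In bulk RNA, fewer cells of a type and less RNA per cell cannot be told apart.

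At 1 h the members moved little. With AF without glucose 2 of 34 were higher and 14 lower than in regular culture, all by under 1.2-fold. None passed 2-fold, beside 1.1% of all genes higher and 2.03% lower by that much. The share called was 47.1% of members, beside 38.4% of all genes (17.7% higher and 20.7% lower). The member medians were -0.07 in log2 against 0.01 over all genes. The groups did not overlap for 23 of the 34 members and for 68.1% of all genes. The 7 h change differed from the 1 h change for 24 members by the interaction term of the limma fit, 13 towards a rise and 11 towards a fall, which is 70.6% of members against 73.7% of all genes.

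Regular culture also changed between its 1 h and 7 h libraries, with 11 members higher and 5 lower at 7 h (47.1%, against 61.5% of all genes, 30.7% higher and 30.8% lower). None of those members changed by 2-fold, which 1.55% of all genes did upward and 4.7% downward. The comparison at 7 h shares the 7 h regular libraries with this one.

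The scale matters for the small changes. Scaling each library to its read total in the listed genes moved the median of all genes at 7 h to -0.32 in log2. It left 7 members higher and 21 lower, beside 3144 higher and 7581 lower of the 13028 genes tested. Of all calls, 29.3% were then higher, against 49.7% on the deposited scale. The 7 members higher on both scales were UBE2B, UBE2D3, UBE2D1, UBE2L6, UBE2E1, UBE2A and UBE2J1, and every member lower on the deposited scale was lower on that scale too. The log2 changes that follow are on the deposited scale, whose median over all genes was near 0.

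**Figure D1:**
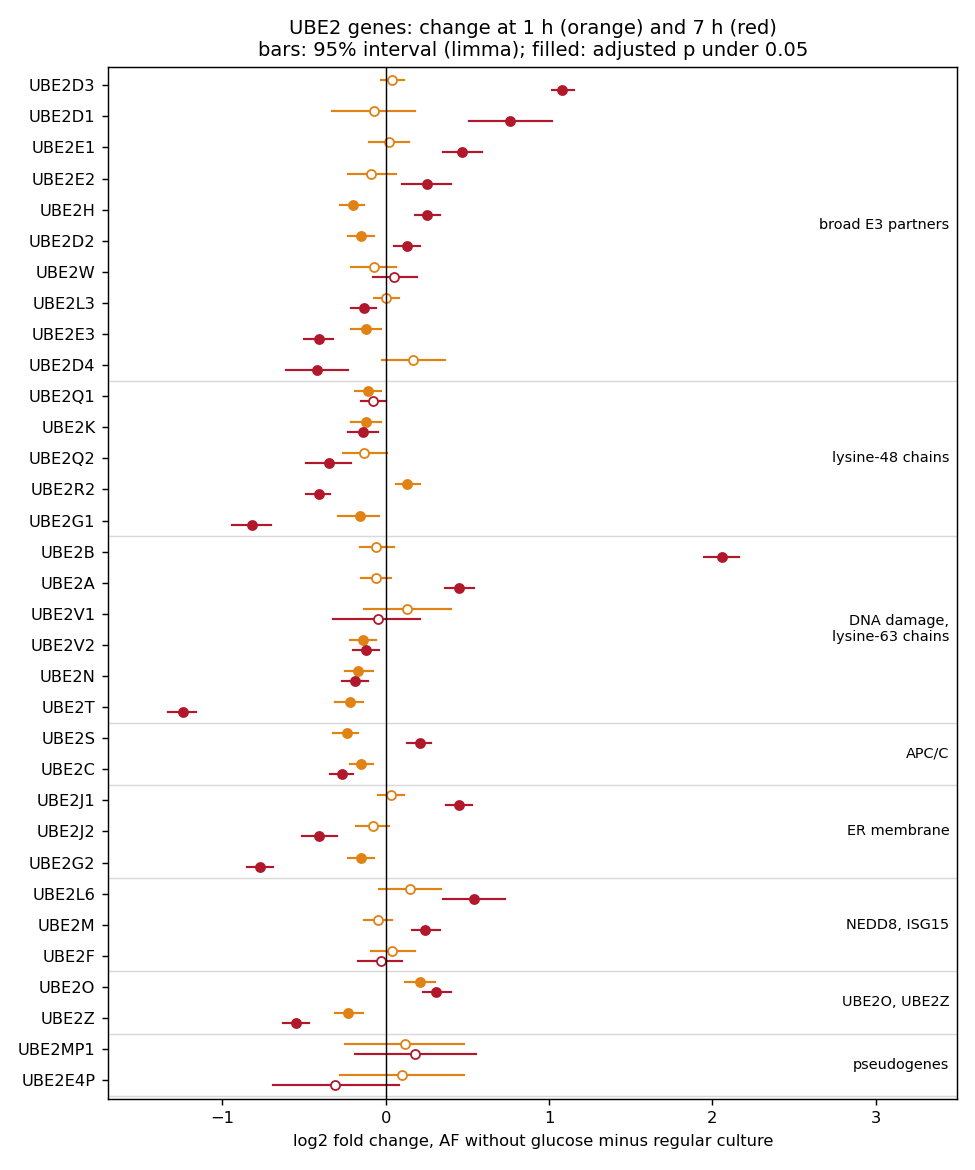
Log2 fold change of 33 UBE2 genes, AF without glucose minus regular culture, at 1 h (orange) and 7 h (red), grouped by role, with 95% intervals from limma and filled points for adjusted p under 0.05. At 7 h UBE2B (2.06) and UBE2D3 (1.08) stand to the right and UBE2T (-1.24) to the left, while all 1 h points lie between -0.24 and 0.21.

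Of the 6 measured E2 enzymes of DNA damage signalling and lysine-63 chains, 2 rose and 3 fell at 7 h. UBE2B and UBE2A are near-identical proteins that serve RAD18 at stalled replication forks, RNF20 and RNF40 at histone H2B, and the UBR ligases of the N-degron pathway. UBE2B (chromosome 5, 134371179 to 134391992, plus strand, GRCh38) had 171 and 175 CPM with AF without glucose, against 39.6 and 43.4 CPM in regular culture at 7 h. At 1 h it had 49.2 and 46.1 CPM with AF without glucose, against 51.2 and 48 CPM in regular culture. Both treated libraries at 7 h lay above every other library, and the groups at 1 h overlapped. The log2 change was 2.06 at 7 h (95% interval 1.95 to 2.16, adjusted p = 4.23e-18), the 360th highest of 13028 genes, and -0.06 at 1 h (adjusted p = 0.404).

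UBE2A, on chromosome X, had 99.6 and 95.2 CPM with AF without glucose, against 69.1 and 73.0 CPM in regular culture at 7 h, a log2 change of 0.45 (95% interval 0.36 to 0.54, adjusted p = 7.77e-09). Its 1 h values were 69.4 and 70.4 CPM with AF without glucose and 74.8 and 71.0 CPM in regular culture, which did not pass the test (adjusted p = 0.289). The 2 genes therefore moved in the same direction at 7 h by different amounts. Exon length here is the union of all annotated exons of a gene, which can exceed the length of its transcripts. Per kilobase of exon, UBE2B stood at 2.76 and 2.94 times UBE2A in the treated libraries at 7 h, against 0.919 and 0.952 times in regular culture. At 1 h that ratio was 1.14 and 1.05 with AF without glucose and 1.10 and 1.08 in regular culture. Strand is not stated for these libraries, and 18.1% of the exon bases of UBE2A overlap NKRF on the opposite strand. NKRF averaged 94.9 ± 4.57 CPM with AF without glucose and 21.5 ± 1.28 CPM in regular culture at 7 h (SD, n = 2 each), a log2 change of 2.14. The part of NKRF reads in the UBE2A rise was not tested.

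UBE2T loads ubiquitin onto FANCD2 and FANCI through the ligase FANCL. UBE2T (chromosome 1, 202331657 to 202341980, minus strand) had 37.7 and 36.3 CPM with AF without glucose, against 87.5 and 88.0 CPM in regular culture at 7 h. At 1 h it had 80.7 and 83.2 CPM with AF without glucose, against 95.7 and 95.6 CPM in regular culture. The treated libraries were lower at both times, with no overlap. The log2 change was -0.22 at 1 h (adjusted p = 0.00016) and -1.24 at 7 h (95% interval -1.33 to -1.16, adjusted p = 3.27e-16), the 928th lowest of 13028. Its later fall exceeded its earlier one by 1.02 in log2 (interaction -1.02, adjusted p = 3.68e-12).

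UBE2N builds lysine-63 chains together with UBE2V1 or UBE2V2, which lack an active-site cysteine. UBE2N had 89.3 and 88.3 CPM with AF without glucose, against 102 and 100 CPM in regular culture at 7 h (log2 change -0.19, adjusted p = 0.000199). Its 1 h values were 77.3 and 78.7 CPM with AF without glucose, against 85.0 and 90.2 CPM in regular culture (log2 change -0.17, adjusted p = 0.00218). On the deposited scale the 7 h change of UBE2N minus its 1 h change was -0.02 in log2 (95% interval -0.14 to 0.09). That difference was called with quantile normalization (-0.13, adjusted p = 0.0462) and with the read total (-0.41, adjusted p = 1.72e-06). On the opposite strand, NUDT4 overlaps 39.5% of UBE2N exon bases, and it had a log2 change of 0.77 at 7 h. Without strand, reads of these genes cannot be told apart, and the part of NUDT4 in the UBE2N value was not tested. UBE2V2 fell by 0.14 at 1 h (adjusted p = 0.00599) and by 0.12 at 7 h (adjusted p = 0.00668) on the log2 scale. The 1 h call of UBE2V2 was lost without library B of the treated group (-0.11). It was also lost with quantile normalization (adjusted p = 0.0763) and with the read total (adjusted p = 0.127). UBE2V1 was low, at 3.83 and 3.73 CPM with AF without glucose and 3.95 and 3.91 CPM in regular culture at 7 h, and did not pass on the deposited scale (adjusted p = 0.705). With the read total UBE2V1 was called lower at 7 h (-0.37, adjusted p = 0.0125), and its interaction was -0.57 (adjusted p = 0.00756). A read-through gene shares 42.9% of its exon bases, so its count is uncertain.

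**Figure D2:**
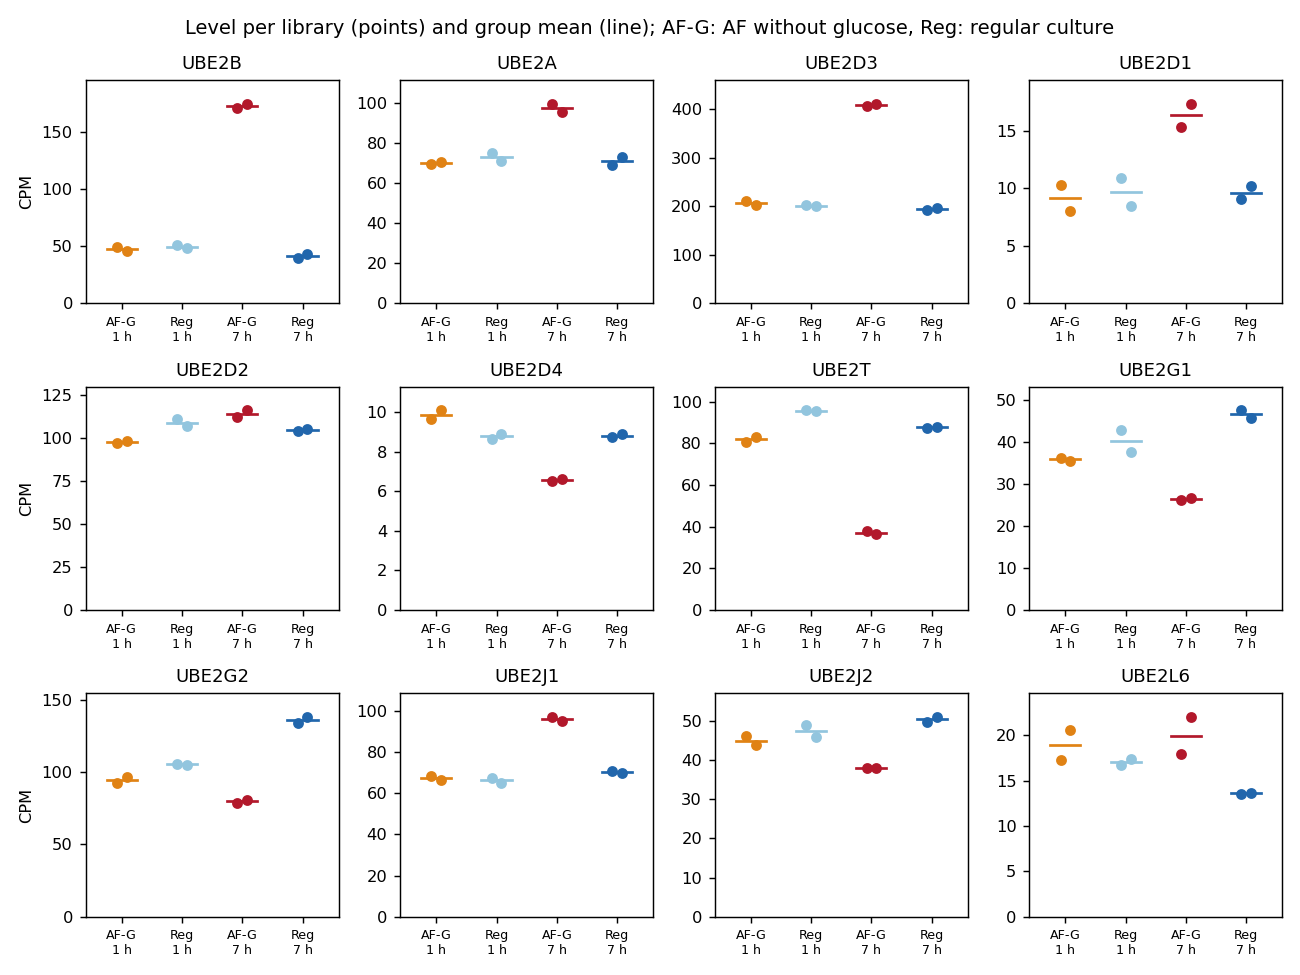
Level in CPM of 12 UBE2 genes in each of the 8 libraries (points) with the mean of each group (lines), for AF without glucose (AF-G) and regular culture (Reg) at 1 h and 7 h. UBE2B stands at 171 and 175 CPM in the treated libraries at 7 h and at 39.6 to 51.2 CPM in the other 6, and UBE2T at 37.7 and 36.3 CPM against 80.7 to 95.7 CPM.

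The role group of broad E3 partners held the UBE2D and UBE2E enzymes, UBE2L3, UBE2H and UBE2W. The last 3 were placed there by assignment, and UBE2H is the E2 of the CTLH ligase. At 7 h the group had 6 rises and 3 falls of 10 measured (median log2 change 0.19), beside 40.5% of all genes higher and 41.1% lower. Scaled to the read total it had 3 rises and 5 falls with a median of -0.13, so this balance depends on the scale. On that scale 3144 of the 13028 genes tested were higher and 7581 lower. At 1 h 3 of the 10 were lower, beside 20.7% of all genes, and the other 7 did not pass.

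The UBE2D enzymes, known as UbcH5, work with most RING, HECT and U-box ligases, and their 4 genes did not move together. UBE2D3 (chromosome 4, 102794383 to 102868896, minus strand) had 407 and 411 CPM with AF without glucose, against 191 and 195 CPM in regular culture at 7 h. At 1 h UBE2D3 had 211 and 203 CPM with AF without glucose, against 202 and 200 CPM in regular culture. The 7 h groups were far apart and the 1 h groups nearly touched. The log2 change was 1.08 at 7 h (95% interval 1.02 to 1.15, adjusted p = 8.57e-17) and 0.04 at 1 h (adjusted p = 0.339). The 1 h change passed only under other scalings, at 0.16 with quantile normalization and 0.11 when scaled to the read total.

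UBE2D1 (chromosome 10, 58334975 to 58370753, plus strand) was a low member, with 15.4 and 17.4 CPM with AF without glucose, against 9.10 and 10.2 CPM in regular culture at 7 h. Its log2 change was 0.76 (95% interval 0.51 to 1.02, adjusted p = 1.14e-05). At 1 h its groups overlapped, at 10.3 and 8.06 CPM with AF without glucose and 10.9 and 8.43 CPM in regular culture (adjusted p = 0.686). UBE2D2 had 112 and 116 CPM with AF without glucose and 104 and 105 CPM in regular culture at 7 h. Its log2 change of 0.13 (adjusted p = 0.00302) became -0.19 when scaled to the read total and did not pass with quantile normalization (adjusted p = 0.196). At 1 h UBE2D2 fell by 0.15 in log2 (adjusted p = 0.00292), at 97.2 and 98.5 CPM with AF without glucose and 111 and 107 CPM in regular culture. That 1 h call was lost with quantile normalization (adjusted p = 0.113) and with the read total (adjusted p = 0.0807).

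UBE2D4 went the other way, with 6.54 and 6.64 CPM with AF without glucose, against 8.75 and 8.91 CPM in regular culture at 7 h (log2 change -0.42, adjusted p = 0.000263). Its 1 h change of 0.17 did not pass (adjusted p = 0.147), and the 7 h change was lower than it by 0.59 in log2 (interaction adjusted p = 0.000347). The 1 h change of UBE2D4 was called with the read total (0.24, adjusted p = 0.0373) and without the trend. Part of UBE2D4, 15.5% of its exon bases, lies on the opposite strand of POLR2J4, whose log2 change at 7 h was 0.41. Per kilobase of exon, UBE2D3 stood at 1.28 and 1.25 times UBE2D2 in the treated libraries, against 0.649 and 0.655 times in regular culture at 7 h. Those lengths, unions of all annotated exons, were 10069 bases for UBE2D3 and 3556 for UBE2D2. In CPM UBE2D3 was above UBE2D2 in every library. Per kilobase of exon, UBE2D1 stood at 3.18 and 3.54 times UBE2D4 in the treated libraries, against 1.41 and 1.55 times in regular culture. The UBE2D genes are close copies in their coding parts, and the labels do not tell how reads matching several of them were counted.

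The UBE2E enzymes, which carry an extra N-terminal extension before a UBE2D-like core, also split. UBE2E1 had 58.4 and 57.3 CPM with AF without glucose, against 40.5 and 42.9 CPM in regular culture at 7 h, and rose by 0.47 in log2 (adjusted p = 2.2e-07). Its 1 h groups overlapped, at 44.6 and 43.5 CPM with AF without glucose and 46.5 and 40.6 CPM in regular culture. UBE2E3 had 77.5 and 77.1 CPM with AF without glucose, against 100 and 106 CPM in regular culture, and fell by 0.41 in log2 (adjusted p = 4.62e-08). UBE2E2 rose by 0.25 (adjusted p = 0.00274), at 21.8 and 20.4 CPM with AF without glucose and 18.2 and 17.2 CPM in regular culture, and stood at -0.07 when scaled to the read total. The UBE2E1 to UBE2E3 ratio per kilobase was 0.728 and 0.720 in the treated libraries at 7 h and 0.391 and 0.393 in regular culture. At 1 h the UBE2E3 fall of 0.12 in log2 (adjusted p = 0.033) was lost with quantile normalization (adjusted p = 0.296) and with the read total (adjusted p = 0.339). That call was also lost without library A or B of the treated group or library A of regular culture, at -0.12, -0.13 and -0.06.

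UBE2L3, or UbcH7, serves HECT and RBR ligases such as those of the ARIH type. It had 156 and 154 CPM with AF without glucose, against 167 and 173 CPM in regular culture at 7 h, and fell by 0.13 in log2 (adjusted p = 0.00226). At 1 h it had 140 and 148 CPM with AF without glucose and 143 and 145 CPM in regular culture (adjusted p = 0.969). It was called higher at 1 h with quantile normalization (0.10, adjusted p = 0.0316). In regular culture UBE2L3 was higher at 7 h than at 1 h, by 0.24 in log2 (adjusted p = 1.14e-05), and the 7 h comparison uses those same 7 h libraries. UBE2H, the E2 of the CTLH ligase, had 142 and 137 CPM with AF without glucose, against 120 and 114 CPM in regular culture at 7 h (log2 change 0.25, adjusted p = 2.54e-06, and -0.06 when scaled to the read total). At 1 h UBE2H was lower, at 113 and 112 CPM with AF without glucose and 129 and 130 CPM in regular culture (log2 change -0.20, adjusted p = 0.00016). UBE2W, which ubiquitinates protein N-termini, had 30.9 and 35 CPM with AF without glucose and 30.8 and 32.6 CPM in regular culture at 7 h and did not pass at either time on the deposited scale (adjusted p = 0.46 at 7 h and 0.414 at 1 h). With the read total UBE2W was called lower at 7 h (-0.26, adjusted p = 0.00136).

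The role group assigned to lysine-48 chains of proteasome substrates held UBE2K, UBE2R2, UBE2G1, UBE2Q1 and UBE2Q2, and UBE2G2 was counted with the ER enzymes. Of these 5 measured members, 4 fell at 7 h, beside 41.1% of all genes lower, with a median log2 change of -0.35. CDC34, a lysine-48 E2 outside the symbol rule, rose by 0.19 (adjusted p = 0.00196), at 41.1 and 40.4 CPM with AF without glucose and 35.3 and 36.4 CPM in regular culture, and was -0.13 with the read total (adjusted p = 0.0202). With scaling to the read total all 5 UBE2 members were lower, on a scale where 7581 of the 13028 genes tested were lower. UBE2G1, which extends chains for cullin-RING ligases, had 26.2 and 26.6 CPM with AF without glucose, against 47.6 and 45.9 CPM in regular culture at 7 h. Its 1 h values were 36.2 and 35.6 CPM with AF without glucose, against 43.0 and 37.6 CPM in regular culture. The 7 h groups were far apart, and UBE2G1 (chromosome 17, 4269259 to 4366628, minus strand) fell by 0.82 in log2 (95% interval -0.94 to -0.70, adjusted p = 9.15e-11). Its 1 h fall of 0.16 (adjusted p = 0.0319) was lost with quantile normalization (adjusted p = 0.0667) and with the read total (adjusted p = 0.202). The 1 h call was also lost without library A or B of the treated group or library A of regular culture, at -0.18, -0.15 and -0.07.

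UBE2R2, a close relative of CDC34 that serves SCF ligases, had 87.5 and 86.7 CPM with AF without glucose, against 118 and 114 CPM in regular culture at 7 h. At 1 h it had 89.5 and 91.6 CPM with AF without glucose, against 81.7 and 83.5 CPM in regular culture. The treated libraries thus sat at 86.7 to 91.6 CPM at both times, while regular culture was higher at 7 h than at 1 h by 0.49 in log2 (adjusted p = 9.9e-10). The treatment change was -0.41 at 7 h (adjusted p = 3.35e-09) and 0.13 at 1 h (adjusted p = 0.00779). The 1 h rise was lost without library B of the treated group (adjusted p = 0.0685) or library A of regular culture (adjusted p = 0.0577). UBE2Q2 had 25.3 and 26.3 CPM with AF without glucose, against 31.8 and 34.1 CPM in regular culture at 7 h (log2 change -0.35, adjusted p = 6.46e-05). UBE2K, which forms lysine-48 chains without needing a particular ligase, fell by 0.14 at 7 h (adjusted p = 0.00572, and 0.0914 without library A of regular culture). UBE2Q1 fell by 0.11 at 1 h (adjusted p = 0.0236). That 1 h call was lost without library A of the treated group (-0.07) and without library B of regular culture (-0.09). It was also lost with quantile normalization (adjusted p = 0.743) and with the read total (adjusted p = 0.385). At 7 h UBE2Q1 had -0.08 (adjusted p = 0.055), which passed with quantile normalization (-0.16, adjusted p = 0.000561) and with the read total (-0.40, adjusted p = 7.55e-09).

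The ER E2 enzymes moved in both directions, with 1 rise and 2 falls at 7 h. UBE2G2, recruited to the ER by AUP1 to degrade misfolded proteins, had 79.0 and 81.0 CPM with AF without glucose, against 134 and 138 CPM in regular culture at 7 h. Its 1 h values were 92.6 and 97.0 CPM with AF without glucose, against 106 and 105 CPM in regular culture. UBE2G2 was lower in the treated libraries at both times, with no overlap. UBE2G2 (chromosome 21, 44768580 to 44802019, minus strand) fell by 0.77 at 7 h (95% interval -0.85 to -0.69, adjusted p = 2.66e-13) and by 0.15 at 1 h (adjusted p = 0.00367, and 0.0589 without library A of the treated group). The 1 h fall of UBE2G2 was also lost with quantile normalization (adjusted p = 0.0938) and with the read total (adjusted p = 0.0923). Regular culture itself stood 0.37 higher in log2 at 7 h than at 1 h (adjusted p = 6.03e-08).

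UBE2J1 and UBE2J2 are anchored in the ER membrane by their tails. UBE2J1 had 96.9 and 95.2 CPM with AF without glucose, against 70.7 and 69.9 CPM in regular culture at 7 h, and rose by 0.45 in log2 (95% interval 0.37 to 0.53, adjusted p = 2.19e-09). UBE2J2 had 38 and 37.9 CPM with AF without glucose, against 49.8 and 50.9 CPM in regular culture, and fell by 0.41 (95% interval -0.51 to -0.30, adjusted p = 2.51e-07). The 2 tail-anchored enzymes thus changed in opposite directions. At 1 h UBE2J1 had 68.4 and 66.6 CPM with AF without glucose and 67.2 and 65.2 CPM in regular culture. Neither passed then, at 0.03 for UBE2J1 (adjusted p = 0.62) and -0.08 for UBE2J2 (adjusted p = 0.229). Per kilobase of exon, UBE2J1 stood at 2.80 and 2.76 times UBE2J2 in the treated libraries at 7 h, against 1.56 and 1.51 times in regular culture.

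UBE2C starts and UBE2S extends the ubiquitin chains that the APC/C puts on mitotic proteins. UBE2C had 277 CPM in both libraries with AF without glucose, against 335 and 332 CPM in regular culture at 7 h, and fell by 0.27 in log2 (adjusted p = 5.38e-07). At 1 h UBE2C had 307 and 285 CPM with AF without glucose, against 331 and 327 CPM in regular culture (log2 change -0.15, adjusted p = 0.00128). The 1 h call of UBE2C was lost with quantile normalization (-0.07, adjusted p = 0.142). UBE2S had 235 and 249 CPM with AF without glucose, against 214 and 205 CPM in regular culture at 7 h. At 1 h UBE2S had 238 and 229 CPM with AF without glucose, against 275 and 277 CPM in regular culture. UBE2S in the treated libraries thus stayed within 229 to 249 CPM at both times, while regular culture was lower at 7 h than at 1 h by 0.40 in log2 (adjusted p = 1.28e-08). The treatment change of UBE2S was -0.24 at 1 h (adjusted p = 1.95e-05) and 0.21 at 7 h (adjusted p = 2.41e-05). The 7 h value of UBE2S was 0.02 with quantile normalization (adjusted p = 0.535) and -0.11 when scaled to the read total, so its direction at 7 h depends on the scale.

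Among the E2 enzymes of NEDD8 and ISG15, UBE2M and UBE2L6 rose at 7 h on the deposited scale and UBE2F did not pass. UBE2M, the NEDD8 enzyme of most cullins, had 89.4 and 86.3 CPM with AF without glucose, against 74.2 and 74.3 CPM in regular culture at 7 h (log2 change 0.24, adjusted p = 1.72e-05). Its 1 h groups overlapped, at 77.9 and 74.5 CPM with AF without glucose and 77.4 and 80.1 CPM in regular culture (adjusted p = 0.392). UBE2F, the NEDD8 enzyme of CUL5, had 29.7 and 26.2 CPM with AF without glucose and 27.9 and 29.2 CPM in regular culture, and did not pass (adjusted p = 0.637). A read-through gene shares 16.2% of UBE2F exon bases. Scaled to the read total, UBE2M had -0.07 (adjusted p = 0.091) and UBE2F was called lower, at -0.35 (adjusted p = 7.24e-05), at 7 h.

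UBE2L6, the E2 of ISG15 and itself an interferon-induced gene, had 17.9 and 22 CPM with AF without glucose, against 13.5 and 13.7 CPM in regular culture at 7 h. At 1 h UBE2L6 had 17.3 and 20.6 CPM with AF without glucose, against 16.7 and 17.4 CPM in regular culture. The groups overlapped at 1 h and not at 7 h. UBE2L6 rose by 0.54 at 7 h (95% interval 0.35 to 0.73, adjusted p = 2.05e-05), while regular culture fell by 0.32 between 1 h and 7 h (adjusted p = 0.00474). The interaction for UBE2L6 was 0.39 (adjusted p = 0.0104) and was lost without library A of the treated 1 h group (adjusted p = 0.0843) or library B of the treated 7 h group (adjusted p = 0.0803). It was 0.0062 with the read total (adjusted p = 0.968) and was also lost without the trend.

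UBE2O, a large enzyme that joins E2 and E3 functions in 1 chain and removes orphan ribosomal and globin proteins, was the only member called higher at both times on the deposited scale. At 7 h it had 120 and 121 CPM with AF without glucose, against 97.7 and 96.1 CPM in regular culture. At 1 h UBE2O had 76.1 and 78.0 CPM with AF without glucose, against 64.1 and 69.1 CPM in regular culture. Both groups of UBE2O were higher at 7 h than at 1 h, regular culture by 0.54 in log2 (adjusted p = 9.9e-10). The treatment change was 0.21 at 1 h (adjusted p = 0.000383) and 0.31 at 7 h (adjusted p = 7.72e-07), and the 7 h value was -0.00358 when scaled to the read total.

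UBE2Z, which takes ubiquitin and FAT10 from the E1 enzyme UBA6, was lower at both times. UBE2Z had 119 and 114 CPM with AF without glucose, against 174 and 167 CPM in regular culture at 7 h (log2 change -0.55, 95% interval -0.63 to -0.47, adjusted p = 8.18e-11). Its 1 h values were 143 and 153 CPM with AF without glucose, against 173 CPM in both libraries of regular culture (log2 change -0.23, adjusted p = 0.000107). Across the family, on the deposited scale, 9 members were lower at both times. UBE2S, UBE2H and UBE2D2 were among those lower at 1 h and higher at 7 h. The reverse held for UBE2R2 alone, and 13 members passed at 7 h and not at 1 h. The shares of all genes with these patterns were not counted. With the read total, the 7 h values of UBE2S (-0.11), UBE2H (-0.06) and UBE2D2 (-0.19) were negative. Of the 14 calls of a fall at 1 h, those of UBE2S, UBE2H, UBE2N, UBE2T and UBE2Z remained with each library left out in turn, with quantile normalization and when scaled to the read total.

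The pseudogenes did not pass in the treated against regular comparisons on the deposited scale. UBE2MP1, a processed copy of UBE2M, had 5.94 and 3.96 CPM with AF without glucose and 3.61 and 5.05 CPM in regular culture at 7 h (adjusted p = 0.347). UBE2E4P had 2.67 and 2.49 CPM with AF without glucose and 3.92 and 2.60 CPM in regular culture (adjusted p = 0.129). At 7 h UBE2E4P was called lower with quantile normalization (-0.41, adjusted p = 0.0476), with the read total (-0.62, adjusted p = 0.00471) and without library B of regular culture (-0.60, adjusted p = 0.0123). UBE2MP1 was called higher without library B of the treated group (0.47, adjusted p = 0.022). In regular culture UBE2E4P was higher at 7 h than at 1 h by 0.45 (adjusted p = 0.0412), a call lost without either library at 1 h or library A at 7 h (adjusted p = 0.0705, 0.16 and 0.554). Reads of these copies cannot be told apart from reads of their parent genes where the sequences match.

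**Figure D3:**
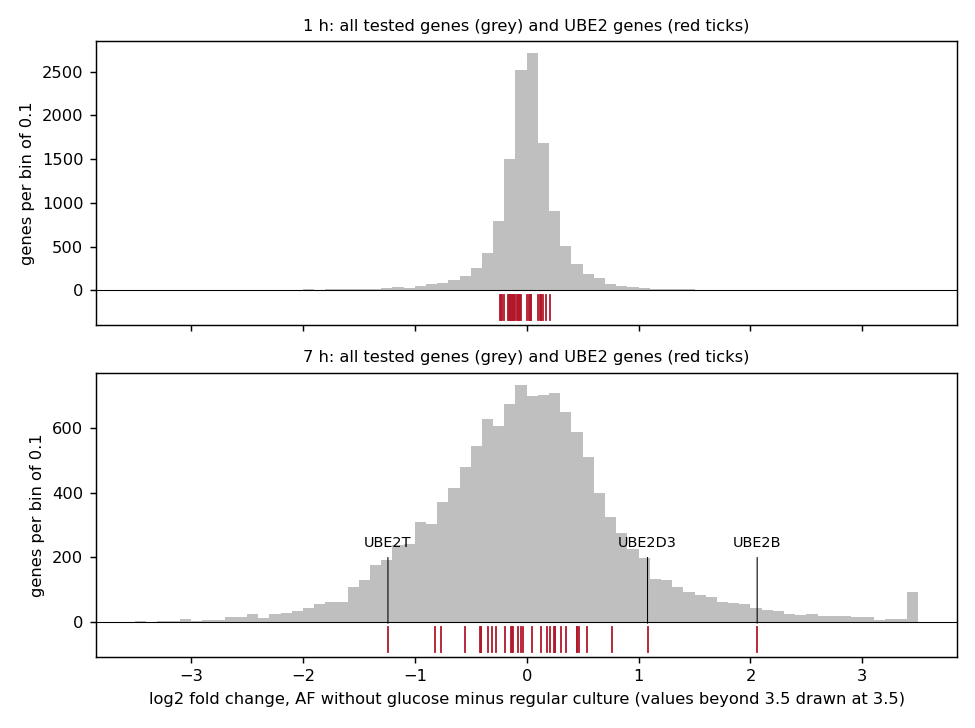
Number of tested genes in bins of 0.1 of log2 fold change (grey), AF without glucose minus regular culture, at 1 h and 7 h, with each UBE2 gene as a red tick under the axis. The UBE2 ticks lie within -0.24 to 0.21 at 1 h and spread over -1.24 to 2.06 at 7 h, inside the range of all genes.

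The summed level of the family differed by scale. The 34 members added up to 3100 and 3104 CPM with AF without glucose, against 2895 and 2897 CPM in regular culture at 7 h. Without UBE2B and UBE2D3 the sums were 2522 and 2518 CPM with AF without glucose and 2665 and 2659 CPM in regular culture. As a share of reads in the listed genes, the family took 0.260% and 0.263% with AF without glucose, against 0.303% and 0.305% in regular culture at 7 h. The sum was thus higher with treatment on the deposited scale and lower as a share of reads. At 1 h the sums were 2653 and 2640 CPM with AF without glucose and 2851 and 2821 CPM in regular culture, and the shares of reads were 0.289% and 0.287% against 0.296% and 0.293%.

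Levels per kilobase of exon (GENCODE v29, 33 of the 34 members matched) put UBE2C and then UBE2S first in every group. The order across members depends on the exon length used, the union of all annotated exons of a gene. UBE2C took 25% of the summed CPM per kilobase of the family in both treated libraries at 7 h, against 29.9% and 29.6% in regular culture. UBE2B took 6.03% and 6.15% in the treated libraries, against 1.38% and 1.51% in regular culture, and stood 3rd of 33 with treatment and 21st in regular culture. UBE2D3 took 4.68% and 4.73% in the treated libraries, against 2.18% and 2.22% in regular culture, 5th in order with treatment and 11th in regular culture. UBE2T took 2.65% and 2.55% in the treated libraries, against 6.08% and 6.10% in regular culture, and stood 10th with treatment and 3rd in regular culture. UBE2V1, UBE2D4 and UBE2D1 were among the 4 lowest in each group. At 1 h UBE2T was 3rd, UBE2D3 11th and UBE2B 14th in both groups.

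**Figure D4:**
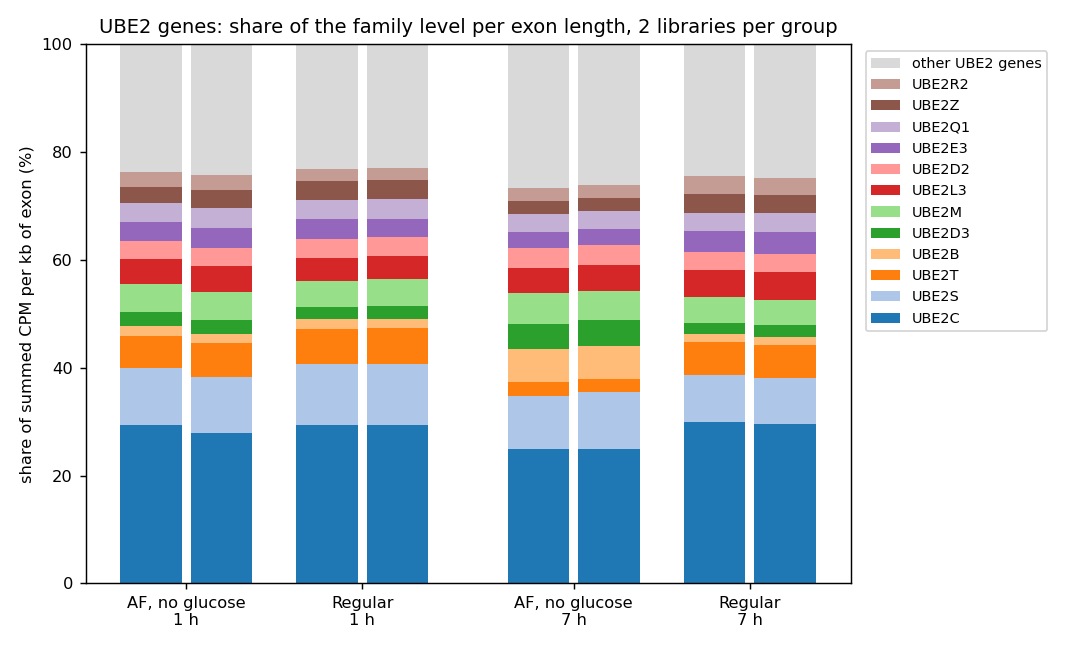
Share of the summed CPM per kilobase of exon (% of the family) taken by 12 UBE2 genes (colours) and the other members together (grey), in each of the 2 libraries of the 4 groups. In the treated libraries at 7 h the UBE2B band is 6.03% and 6.15% and the UBE2T band 2.65% and 2.55%, against 1.38% and 1.51% and 6.08% and 6.10% in regular culture at 7 h.

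Genes that work with the UBE2 enzymes were taken from lists chosen with earlier results of these data known. They are described by counts beside the 40.5% of all genes higher and 41.1% lower at 7 h on the deposited scale. With the read total, 3144 of the 13028 genes tested were higher and 7581 lower. The E1 enzymes had 4 higher and 4 lower of 10 on the deposited scale (median log2 change 0.09), and 2 higher and 7 lower when scaled to the read total (median -0.22). SAE1, a subunit of the SUMO-activating enzyme, was the highest, at 262 and 265 CPM with AF without glucose and 184 and 187 CPM in regular culture (log2 change 0.51, adjusted p = 3.94e-11). UBA3, the catalytic subunit for NEDD8, was the lowest, at 41 and 42.1 CPM with AF without glucose and 53.0 and 54.8 CPM in regular culture (log2 change -0.38, adjusted p = 1.77e-06). Of 8 other E2 and E2-like genes, 4 were higher and 2 lower, and with the read total 2 were higher and 5 lower. These ranged from AKTIP at -0.54 (adjusted p = 4.14e-06) to TSG101, the ubiquitin-binding E2 variant of endosomal sorting, at 0.54 (adjusted p = 1.98e-09).

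The APC/C, the ligase of UBE2C and UBE2S, had 12 lower and 4 higher of 17 genes at 7 h, with a median of -0.43. FBXO5, an APC/C inhibitor known as EMI1, had 8.43 and 8.14 CPM with AF without glucose, against 47.5 and 47.1 CPM in regular culture (log2 change -2.51, adjusted p = 1.38e-17). CDC20, the mitotic activator, had 123 and 116 CPM with AF without glucose, against 354 and 348 CPM in regular culture (log2 change -1.55, adjusted p = 2.34e-18). Both changed by more than UBE2C and UBE2S did. ANAPC16 (log2 change 0.94, adjusted p = 1.04e-13) and CDC26 (0.79, adjusted p = 1.18e-07), small subunits of the complex, were higher.

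The DNA damage partners had 9 lower and 3 higher of 13 at 7 h, with a median of -0.25. UBR2, an N-degron ligase that uses UBE2A and UBE2B, had 160 and 162 CPM with AF without glucose, against 38.8 and 37.4 CPM in regular culture. Its log2 change of 2.08 (adjusted p = 1.21e-18) was of the size of that of UBE2B, 2.06. FANCM, which brings the Fanconi core complex to DNA, had 9.12 and 9.35 CPM with AF without glucose, against 22 and 22.4 CPM in regular culture (log2 change -1.26, adjusted p = 4.86e-12), beside -1.24 for UBE2T. The ligase and a target of UBE2T fell by less, FANCL by 0.38 (adjusted p = 4.3e-05) and FANCD2 by 0.34 (adjusted p = 6.2e-07). FANCI, its other target, was the 1 of the 13 not called on the deposited scale. It was -0.10 with quantile normalization (adjusted p = 0.00708) and -0.26 with the read total, where 7581 of the 13028 genes tested were lower. RNF8, which works with UBE2N at DNA breaks, fell by 0.70 (adjusted p = 3.18e-07). RNF20, the histone H2B ligase, rose by 0.28 (adjusted p = 1.42e-06) and had -0.04 when scaled to the read total. Of the other partners of UBE2A and UBE2B, RAD18 rose by 0.18 (adjusted p = 0.000177) and RNF40 fell by 0.24 (adjusted p = 5.57e-06).

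The ER degradation partners had 9 higher and 1 lower of 13 at 7 h, with a median of 0.57 (8 higher and 5 lower when scaled to the read total, median 0.26). HERPUD1, an ER stress protein that binds the SYVN1 ligase, had 240 and 264 CPM with AF without glucose, against 21.4 and 20.7 CPM in regular culture (log2 change 3.58, adjusted p = 1.57e-22). It was already higher at 1 h, by 1.43 in log2 (adjusted p = 1.74e-15). MARCHF6, an ER ligase, had 233 and 226 CPM with AF without glucose, against 94.2 and 99.9 CPM in regular culture (log2 change 1.24, adjusted p = 3.01e-16). RNF139, another ER ligase, was the 1 that fell, by 0.51 (adjusted p = 4.42e-08). UBE2G2 and UBE2J2 thus fell at the time when 9 of the 13 genes on this list were higher.

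The SUMO genes had 5 higher and 8 lower of 16 at 7 h (median -0.23). SENP1, a SUMO protease, rose by 0.47 (adjusted p = 9.48e-10), while the SUMO ligase PIAS3 fell by 0.92 (adjusted p = 8.67e-12) and the protease SENP3 by 0.53 (adjusted p = 1.54e-06). The NEDD8 genes had 4 higher and 8 lower of 16 (median -0.10). DCUN1D3, a cofactor of cullin neddylation, had 22.5 and 23.6 CPM with AF without glucose, against 8.87 and 7.86 CPM in regular culture (log2 change 1.46, adjusted p = 2.75e-12). CAND1, which binds cullins that lack NEDD8, had 102 and 103 CPM with AF without glucose, against 226 CPM in both libraries of regular culture (log2 change -1.13, adjusted p = 3.82e-17).

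Of 5 ISG15 pathway genes, 4 were higher and none lower at 7 h (median 0.75). HERC5, the main ISG15 ligase, had 13.0 and 14 CPM with AF without glucose, against 7.33 and 7.59 CPM in regular culture (log2 change 0.85, adjusted p = 1.86e-08). ISG15 itself was low, at 2.93 and 7.53 CPM with AF without glucose and 1.86 and 2.05 CPM in regular culture (log2 change 1.25, adjusted p = 0.000478). The remaining E3 list had 15 higher and 10 lower of 29 measured (median 0.22, and -0.10 when scaled to the read total). NEDD4L, a HECT ligase that takes ubiquitin from UBE2D and UBE2L3, had 262 and 261 CPM with AF without glucose, against 125 and 121 CPM in regular culture (log2 change 1.08, adjusted p = 2.17e-16), and was lower at 1 h, by 0.61. RMND5A, a CTLH subunit that works with UBE2H, rose by 0.98 (adjusted p = 1.31e-13). MAEA, another CTLH subunit, went the other way at 7 h, at -0.66 with quantile normalization and -1.03 with the read total. NEDD4, a HECT ligase on the same list as NEDD4L, was also lower at 7 h, at -0.55 and -0.76 on those scales. The ligases TRIM32 (log2 change -1.60, adjusted p = 1.19e-15) and MDM2, which degrades p53 (-1.11, adjusted p = 9.15e-16), were lower. Scaled to the read total, the 7 h counts were 2 higher and 14 lower for the APC/C and 1 and 11 for the DNA damage partners. They were 2 and 12 for SUMO, 4 and 12 for NEDD8, and 4 and 1 for ISG15. On that scale 3144 of all 13028 genes tested were higher and 7581 lower.

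**Figure D5:**
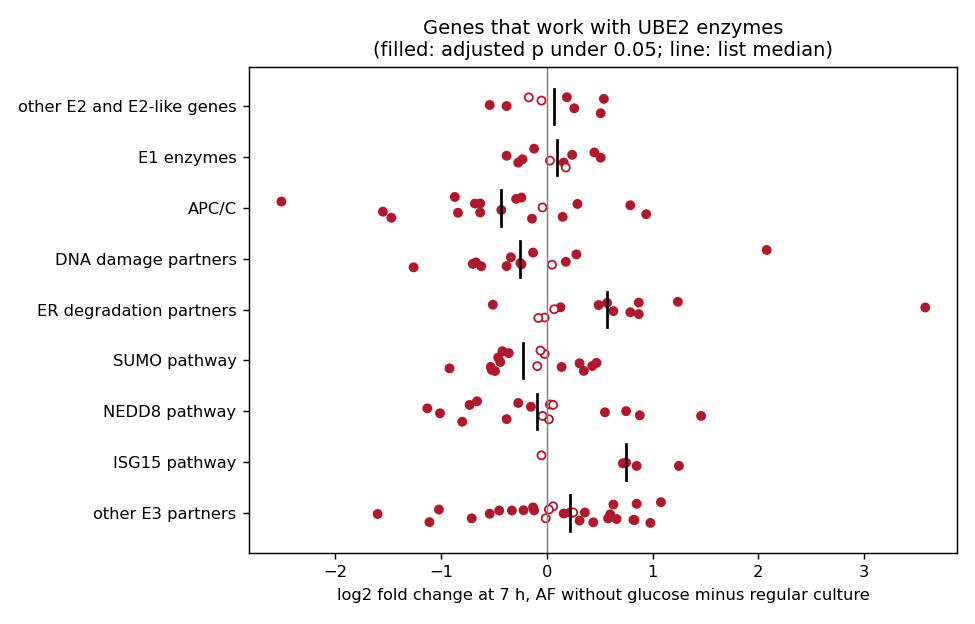
Log2 fold change at 7 h, AF without glucose minus regular culture, of the genes in 9 lists that work with UBE2 enzymes, with filled points for adjusted p under 0.05 and a black line for the list median. Medians run from -0.43 for the APC/C to 0.75 for the ISG15 pathway, with HERPUD1 at 3.58 and FBXO5 at -2.51 as the outermost points.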

How the data were processed

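Messenger RNA from cell lysates was made into libraries with the SMART-Seq mRNA HT and Nextera XT kits, per the labels' protocols; no strand is stated. HISAT2, edgeR and GRCh38 are named in the submitters' processing notes, and how reads were counted is not stated. The authors deposited log2 CPM (count per standard library size) with a prior of 0.0522 CPM, which is 2 reads in a library of mean size. Whole reads were recovered from these values (100% within 0.1 read of a whole number). Linear CPM were obtained by reversing the log2 and removing the prior. Column headings carry the group and no replicate number, so libraries are called A and B without order.

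The main fit was limma 3.58.1 in R 4.3.3 on the deposited log2 values, with a trend, 1 mean for each of 4 groups, 4 residual degrees of freedom and no covariate. Genes with 1 CPM or more in at least 2 libraries were kept (13028; 8 removed, none a UBE2 gene), and p-values were adjusted by Benjamini-Hochberg over these genes and called under 0.05. The code was tested on simulated data. Contrasts were treated minus regular at 1 h and 7 h, their difference, and regular culture at 7 h minus 1 h. Alternatives were another scaling (quantile, read total), voom weights, no trend, other filters and pseudocount, a 1.2-fold minimum, separate fits and leaving out each library. The pairs of libraries differed by more than sampling noise (chi-square per degree of freedom 2.79 to 3.62).

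The members, role groups and lists were chosen with earlier results of these data known. Full values were given, by rule, for the 10 largest rises and 6 largest falls at 7 h, the 5 largest changes each way at 1 h, the 4 largest differences between times and 13 fixed members, and for at most 4 genes of each partner list. RNF5, of the ER list, is not analysed here. The values of 1 member and of some partner genes are not reported here, though counts over lists include them.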

Additional observations from a re-analysis of the deposited data

Results flagged for a closer look

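For 24 UBE2 genes the change with AF without glucose at 7 h differed from that at 1 h, by the interaction term of the limma fit (adjusted p under 0.05; 73.7% of all genes passed). Of these, 23 are given. The differences, 7 h change minus 1 h change in log2, were 2.12 for UBE2B, 1.04 for UBE2D3, 0.83 for UBE2D1, 0.51 for UBE2A, 0.46 for UBE2H, 0.45 for UBE2E1 and for UBE2S, 0.42 for UBE2J1, 0.39 for UBE2L6, 0.34 for UBE2E2, 0.29 for UBE2M and 0.28 for UBE2D2. The differences towards a fall were -1.02 for UBE2T, -0.66 for UBE2G1, -0.62 for UBE2G2, -0.59 for UBE2D4, -0.55 for UBE2R2, -0.33 for UBE2J2, -0.32 for UBE2Z, -0.29 for UBE2E3, -0.23 for UBE2Q2, -0.13 for UBE2L3 and -0.11 for UBE2C. UBE2C lost its call in 7 of 8 fits with 1 library left out (adjusted p up to 0.242), UBE2Q2 in 5 (up to 0.236), UBE2L3 in 4 (up to 0.125) and UBE2L6 in 2 (up to 0.0843). The other genes given kept theirs in all 8. Scaling to the read total moved the median difference over all genes to -0.37, with 2515 of the 13028 genes tested called higher and 7583 lower. Keeping a call towards a fall on that scale is therefore little of a check. The calls towards a rise that remained on it were those of UBE2B, UBE2D3 and UBE2D1. Those of UBE2A (0.13, adjusted p = 0.0589), UBE2H (0.07, 0.201), UBE2E1 (0.07, 0.444), UBE2S (0.07, 0.238), UBE2J1 (0.04, 0.546), UBE2L6 (0.0062, 0.968), UBE2E2 (-0.05, 0.677), UBE2M (-0.10, 0.127) and UBE2D2 (-0.10, 0.0871) were lost, while the 11 towards a fall were kept.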

How the results depend on the processing

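No paired analysis was possible because the columns carry a group and no replicate number. Scaling to the read total moved the median of all genes by -0.32 at 7 h, by -0.37 for the difference between times and by 0.08 at 1 h; higher calls were then 29.3%, 24.9% and 68.4% of all calls, against 49.7%, 49.8% and 46.1% on the deposited scale (57.8% at 1 h with quantile normalization). The cause was not tested. Of the 34 members, 2 were higher at 1 h on the deposited scale, 4 with quantile normalization, 4 with the read total and 0 with a 1.2-fold minimum. At 1 h 14 were lower, 5 with quantile normalization, 6 with the read total, 9 without the trend and 0 with the 1.2-fold minimum. At 7 h 14 were higher, 7 with the read total and 8 with the 1.2-fold minimum, and 14 lower, 7 with that minimum. The interaction gave 13 higher, 3 with the read total, and 11 lower, 20 with the read total and 5 with the 1.2-fold minimum. Regular culture at 7 h minus 1 h gave 11 higher and 5 lower, and 3 and 1 with the 1.2-fold minimum. With each library left out, counts ran from 1 to 2 higher and 8 to 13 lower at 1 h, 14 to 15 and 13 to 15 at 7 h, 12 to 14 and 9 to 10 for the interaction, and 6 to 10 and 4 to 7 in regular culture; a lone library was assumed to vary like the other groups. The 1 h falls numbered 8 without library A and 9 without library B of the treated 1 h group, and the 1 h rises 1 without its library B or library A of regular culture at 1 h. The rises in regular culture numbered 6 without library B of regular culture at 1 h. With the read total, values at 7 h changed sign for UBE2O (-0.00358), UBE2S (-0.11), UBE2M (-0.0745), UBE2E2 (-0.0661), UBE2D2 (-0.19), UBE2H (-0.0638) and UBE2W (-0.26), and for the interaction for UBE2Q1 (-0.35), UBE2O (-0.28), UBE2M (-0.10), UBE2E2 (-0.0455), UBE2D2 (-0.10), UBE2V2 (-0.36) and UBE2W (-0.26). With quantile normalization the interaction of UBE2Q1 changed sign (-0.14). UBE2V1 and UBE2E4P fell out under a minimum of 5 CPM. Voom weights, a pseudocount of 0.5 CPM, no filter and fits on the groups of 1 contrast moved no count of members by over 1.5 times.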
